A study of Mus musculus with 4 samples.

Results

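The organic ion transporters described here are the mouse Slc22, Slco and Slc47 genes, picked by symbol from the feature list of a kidney single-cell experiment. The rule found 41 genes among 31054 features: 25 Slc22 genes, 14 Slco genes and 2 Slc47 genes. No measured value entered the rule, but it was chosen with earlier results of these data known. The animals were C57BL/6 males, 19 months old, that had received either BPTES, an inhibitor of the glutaminase GLS1, or DMSO over 1 month. Each group is represented by 2 libraries made with 10x Genomics GEM-X 3' chemistry. Sorted cells without CD45 (20000) and with CD45 (9000) of the same tissue went into each library, so the leukocyte marker fixed the mixture. The labels do not say how many animals stand behind a library, so the spread between libraries may be technical. All p-values rest on that spread with the variance shared among genes. Their size does not measure the spread of a single gene. With 2 libraries a group, an exact two-sided permutation test of 1 value cannot go below 0.333, so only fits across all genes are used.

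Organic anion and cation transporters carry drugs, toxins, urate, bile acids, steroid conjugates, prostaglandins and carnitine across cell membranes. In the proximal tubule, basolateral anion transporters of the Slc22 family exchange dicarboxylates such as alpha-ketoglutarate, a product of glutamine breakdown, for organic anions from blood. Apical carriers of the Slc22, Slco and Slc47 families pass substrates between cell and urine, and several of these genes are known to differ in level between the early (S1-S2) and late (S3) tubule and between the sexes in the mouse.

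The 4 libraries held 249881074 to 297947661 UMIs in 17907 to 20091 barcodes, and 10849 to 12076 cells per library passed the filters. Libraries shared 90 to 114 barcodes in pairs, at most 0.618% of the smaller library. Clusters were named from fixed marker lists, and each name stands for cells like the type. Proximal tubule clusters held 20706 of 46738 cells, of which 11167 were assigned to S1-S2, 5785 to S3, 3515 to neither segment and 239 to an injured cluster. The segment markers, which defined these groups, were higher in S1-S2 in every library for 7 of 8 S1-S2 genes (Slc3a1 was the exception) and higher in S3 for 8 of 8 S3 genes. Cluster 2, the largest cluster of S3, had a lower S3 marker score (0.308) than clusters 6 (1.644) and 20 (1.369). S3 thus joins clusters that match the S3 markers to different degrees. Levels below are CPM, the UMIs of a gene per 1000000 UMIs of that cell class in a library, without further scaling, and are compared within a gene. The tests scale the summed counts with TMM factors, and fold changes are log2 of BPTES over DMSO from those fits. The SE beside an edgeR fold change was worked back from its test statistic. It therefore carries the variance shared among genes and is not the spread of that gene between libraries. The sum over a class alone cannot tell fewer cells of a subtype from less RNA per cell. Levels by cluster are therefore also given for classes with a call.

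The groups differed in their mix of segments, which was not tested. Of the proximal tubule cells, BPTES libraries held 58.0% and 68.5% in S1-S2, against 43.5% and 45.1% under DMSO. In S3 the shares were 25.05% and 20.48% against 31.48% and 35.43%. Cells assigned to neither segment made up 16.6% and 10.6% against 23.1% and 17.4%. The injured cluster made up 0.27% and 0.37% against 1.98% and 2.09%. Results for the whole proximal tubule are therefore given together with those within segments.

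Sequence is shown for Slco1a1, the member with the largest change in the late tubule, and for Slc22a28, Slc22a29 and Slc22a30, a run of neighbouring anion transporter genes of which the first and second passed the test in proximal tubule. Each is the 250 bases before the RefSeq start site on the gene's own strand (GRCm38.p6, the assembly behind the build mm10 named in the submitters' processing notes), and capitals mark a match to the HNF1 motif. The windows lie on the minus strand at chr6:141946963-141947212, chr19:8131983-8132232, chr19:8218901-8219150 and chr19:8405106-8405355. The third lies inside the Slc22a29 gene model of the GENCODE annotation, which starts further upstream.
Slco1a1: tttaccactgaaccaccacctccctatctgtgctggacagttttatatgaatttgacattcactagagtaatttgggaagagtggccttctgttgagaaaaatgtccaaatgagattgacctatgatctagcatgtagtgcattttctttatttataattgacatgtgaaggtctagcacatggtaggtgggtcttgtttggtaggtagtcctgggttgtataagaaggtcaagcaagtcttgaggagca
Slc22a28: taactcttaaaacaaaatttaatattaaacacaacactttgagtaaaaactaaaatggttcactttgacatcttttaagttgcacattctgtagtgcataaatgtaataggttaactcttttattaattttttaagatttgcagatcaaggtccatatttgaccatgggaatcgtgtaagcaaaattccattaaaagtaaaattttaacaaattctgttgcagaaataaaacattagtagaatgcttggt
Slc22a29: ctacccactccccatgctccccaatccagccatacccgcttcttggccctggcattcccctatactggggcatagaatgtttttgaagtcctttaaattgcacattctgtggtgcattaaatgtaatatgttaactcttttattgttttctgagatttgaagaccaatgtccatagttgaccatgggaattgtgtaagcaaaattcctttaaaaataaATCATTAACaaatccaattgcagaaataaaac
Slc22a30: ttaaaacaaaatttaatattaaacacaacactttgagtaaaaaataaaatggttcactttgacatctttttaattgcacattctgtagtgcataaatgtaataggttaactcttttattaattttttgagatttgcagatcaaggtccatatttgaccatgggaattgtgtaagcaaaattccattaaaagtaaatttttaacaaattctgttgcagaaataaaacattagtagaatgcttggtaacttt

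The Slc22a28 and Slc22a30 windows were nearly the same sequence: set against each other without gaps at a shift of 6 bases, 238 of 244 bases (97.5%) matched. Slc22a29 matched Slc22a28 at 147 of 232 bases (63.4%) and Slc22a30 at 149 of 226 (65.9%). The other 25 pairs among 8 members examined reached 27.8% to 39.7%, the Slco1a1 pairs included. All 3 windows come from the anion transporter run on chromosome 19, where Slc22a28 (chr19:8061958-8131982), Slc22a29 (chr19:8160168-8253375) and Slc22a30 (chr19:8335371-8405111) lie next to each other. Slco1a1 (chr6:141907281-141946962) lies between Slco1a4 and Slco1a6 on chromosome 6. A search of both strands for the HNF1 motif GTTAATNAT found it in 242 of 32851 windows of this length (0.737%) and in 2 of 40 windows of 35 members with an entry, those of Slc22a29 and Slco1b2. The HNF4 motif CAAAGTCCA occurred in 126 windows (0.384%) and in 0 of the 40. The palindromic STAT5-type motif TTCNNNGAA occurred in 2306 windows (7.02%) and in 7 of the 40, none of them among the 4 printed. Slc22a26 to Slc22a30, and Slco1a1, Slco1a4, Slco1a5 and Slco1a6, are paralogs. How alike their counted transcripts are was not tested here. Reads of close copies could be lost or assigned to the wrong copy, so single values of these genes are uncertain.

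Proximal tubule cells held most of the family's transcripts. Summed over the 41 genes, the family made up 3518 and 3432 CPM in proximal tubule under BPTES and 3138 and 3354 under DMSO. In T cells the same sum was 433 and 416 against 409 and 425, and in B cells it was 160 and 103 against 163 and 175. Other classes stood higher. Endothelium reached 536 and 553 against 556 and 604. Parietal epithelium reached 1773 and 1438 against 2396 and 1409, with only 7 cells in each BPTES library. The family sum in S3 was 4120 and 4397 under BPTES against 3725 and 4106 under DMSO. In S1-S2 it was 3706 and 3305 against 3477 and 3203, so the groups overlapped. A mean of at least 20 CPM in proximal tubule was reached by 16 of the 41 members. Of those 16, 14 stood in T cells at 0.942% to 2.998% of their proximal tubule level. Free RNA was not measured, and this share serves only as a rough guide to it. Slc22a4, at its upper end, stood in monocytes at 27.1% of its tubule level. The other 2 of the 16 were Slco3a1 (489% of the tubule level in T cells) and Slc22a5 (10.2%). Levels outside the tubule near the T cell share are not read as expression. No such share is given for the distal tubule classes.

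**Figure D1:**
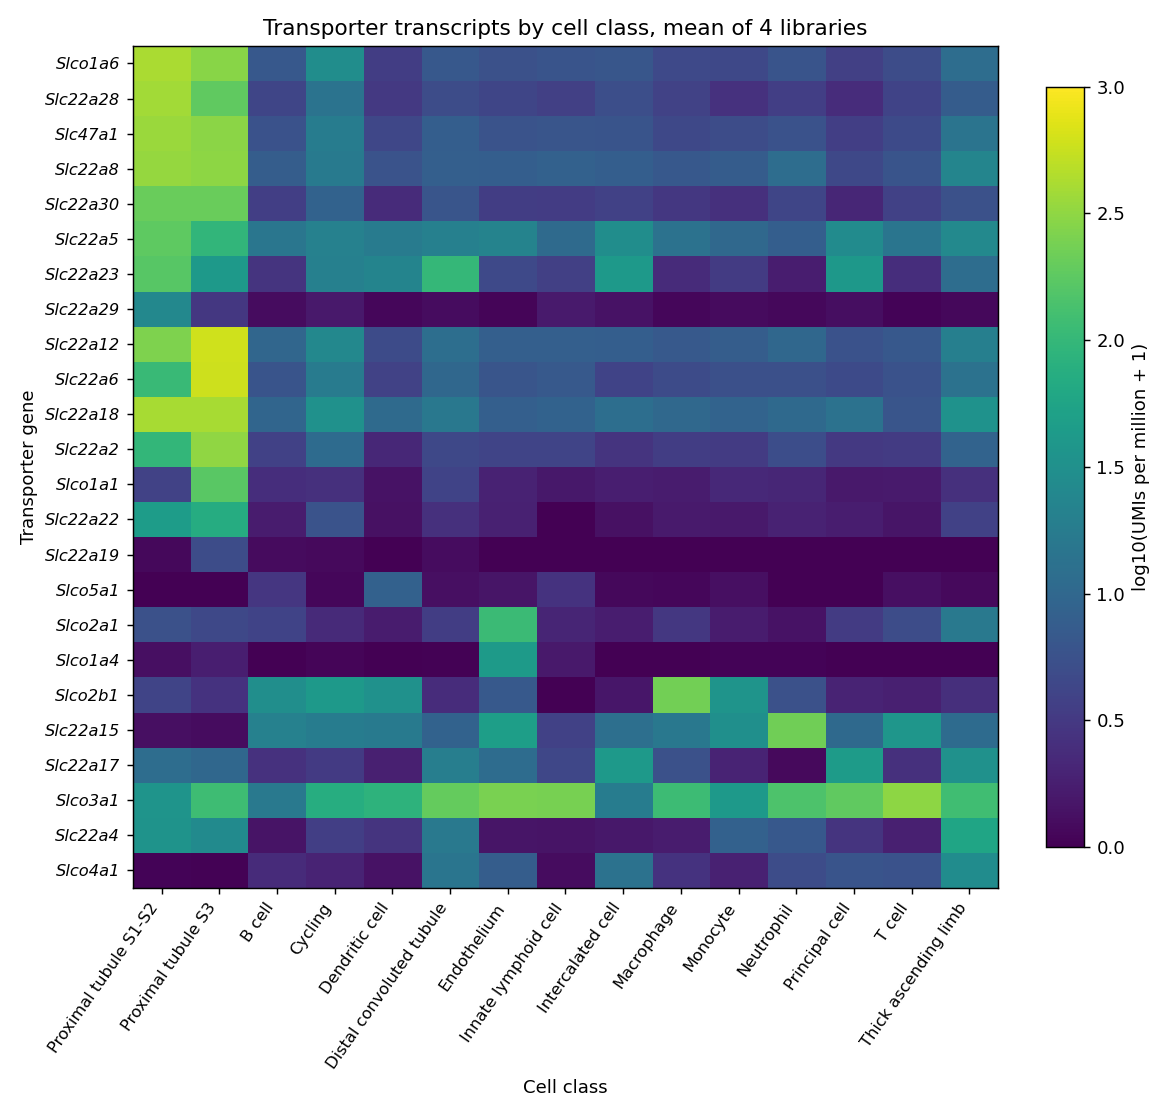
Mean level over 4 libraries, as log10(CPM + 1), of 24 members named by the rule (rows) in 2 proximal tubule segments and 13 other cell classes (columns). Most Slc22 and both Slco1a1 and Slco1a6 are brightest in the tubule columns, while Slco2a1 and Slco1a4 are brightest in endothelium, Slco2b1 in macrophages, Slc22a15 in neutrophils and Slco3a1 in T cells.

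Transcripts of the basolateral anion exchangers differed in their spread along the tubule. Slc22a6 (OAT1), the classical para-aminohippurate exchanger, stood in S3 at 574 and 652 CPM under BPTES and 537 and 626 under DMSO. In S1-S2 it stood at 106 and 104 against 105 and 116. S3 was thus 5.13 to 6.27 times S1-S2 within a library, and the groups overlapped in both segments. This step is between the segments as named here, and the part of each S3 cluster in it was not tested. Slc22a8 (OAT3), which takes up sulfated steroids and larger anions, had no such step: it stood at 361 and 326 against 349 and 309 in S1-S2 and at 273 and 334 against 318 and 307 in S3. Neither gene passed the test in a segment (log2 fold changes 0.01 to 0.18). Slc22a7 (OAT2) was nearly absent from S1-S2, with 13 UMIs in all, and stood in S3 at 24.1 and 14.99 against 7.86 and 15.6.

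Slc22a12, Slc22a13 and Slc22a22 were each higher in S3 than in S1-S2 in 4 of 4 libraries. Slc22a12, the urate transporter URAT1, stood in S3 at 617 and 668 CPM under BPTES and 548 and 584 under DMSO, and in S1-S2 at 269 and 288 against 245 and 255. Both BPTES libraries were above both DMSO libraries in each segment, but the differences did not pass the test (log2 0.29, SE 0.12, adjusted p = 0.366 in S3 and 0.23, SE 0.10, adjusted p = 0.277 in S1-S2, edgeR). Its S3 to S1-S2 ratio was 2.23 to 2.32 in the 4 libraries. Slc22a13, a nicotinate and urate transporter, stood in S3 at 3.42 and 3.67 against 5.31 and 9.63, and did not pass the test (log2 -0.99, adjusted p = 0.266). In S1-S2 only 36 of its UMIs were counted. Slc22a22, a prostaglandin transporter of the basolateral side, stood at 75.9 and 76.7 in S3 under BPTES and 66.2 and 64.7 under DMSO (log2 0.33, adjusted p = 0.230). In S1-S2 it stood at 50.8 and 39.9 against 50.5 and 36.3, with overlapping groups.

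The neighbouring anion transporter genes on chromosome 19 differed in their spread along the tubule. Slc22a28 stood in S1-S2 at 470 and 406 CPM under BPTES and 328 and 327 under DMSO, and in S3 at 193 and 189 against 163 and 185. Slc22a29 stood in S1-S2 at 30.4 and 23.4 against 22.9 and 19.8, and in S3 at 1.93 and 1.75 against 2.72 and 1.75. Slc22a30 stood in S1-S2 at 245 and 202 against 202 and 179, and in S3 at 224 and 198 against 196 and 198. The ratio of S1-S2 to S3 within a library was 1.76 to 2.44 for Slc22a28, 8.43 to 15.7 for Slc22a29 and 0.904 to 1.09 for Slc22a30. Slc22a26 and Slc22a27 were low, with 236 and 306 UMIs in all named classes, and Slc22a26 was higher in S3 than in S1-S2 in 4 of 4 libraries.

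Organic cations enter the tubule cell through carriers such as Slc22a2 (OCT2) and leave it through the proton exchanger Slc47a1 (MATE1). Slc22a2 leaned to the late tubule: it stood at 314 and 342 CPM under BPTES and 280 and 316 under DMSO in S3, against 96.6 and 92.7 and 98.7 and 96.4 in S1-S2. Slc47a1 stood at 368 and 323 against 366 and 350 in S1-S2 and at 285 and 303 against 293 and 325 in S3. Treatment groups of both genes overlapped in both segments, and neither passed the test there (log2 fold changes 0.03 to 0.24). Slc22a3 and Slc47a2 stayed at or below 4.82 CPM on average in every class tested.

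The carnitine carrier Slc22a5 was higher in the early than in the late tubule, by 1.63 to 2.13 times within a library. Slc22a5 (OCTN2), which takes up carnitine with sodium, stood in S1-S2 at 207 and 170 CPM under BPTES and 168 and 165 under DMSO, and in S3 at 96.9 and 86.9 against 88.1 and 101. Slc22a4 (OCTN1), the ergothioneine transporter, stood in S1-S2 at 31.5 and 24.4 against 48.2 and 31.0 and in S3 at 28.1 and 23.8 against 28.0 and 25.6. The low-expressed neighbour Slc22a21 stood in S1-S2 at 6.97 and 5.64 against 11.3 and 7.53. None of the 3 passed edgeR's test in either segment.

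A pair of Slc22 genes without a settled substrate were well expressed. Slc22a18, an imprinted gene on chromosome 7, stood at 421 and 403 CPM under BPTES and 386 and 390 under DMSO in S1-S2, and at 404 and 469 against 344 and 388 in S3. Both BPTES libraries were above both DMSO libraries in each segment (log2 0.17, adjusted p = 0.417 and 0.36, adjusted p = 0.329, edgeR), which did not pass the test. Slc22a23 was an early tubule gene: it stood at 194 and 164 against 167 and 135 in S1-S2 and at 36.7 and 37.9 against 40.4 and 48.8 in S3.

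Slco genes carry bile acids, steroid conjugates and other large anions. Slco1a6, a kidney-enriched apical member, stood in S1-S2 at 435 and 350 CPM under BPTES and 527 and 366 under DMSO and in S3 at 282 and 265 against 306 and 319. Slco3a1, a broadly expressed prostaglandin and thyroid hormone carrier, stood in S3 at 124 and 125 against 96.4 and 121 and in S1-S2 at 36.0 and 42.8 against 29.6 and 32.0. Neither passed edgeR's test in a segment. DESeq2 called Slco3a1 in S1-S2 (log2 0.44, adjusted p = 0.0420, beside 0.121 by edgeR), where its value at a mitochondrial limit of 25% was 0.07. Slco1a1, an apical carrier of steroid conjugates and bile acids that androgen raises in the mouse kidney, had a steep step between segments. In S3 its level was 29.5 to 99.3 times that in S1-S2 of the same library. These segment ratios describe cells grouped by their expression, and no test of them is given. The segments also differed in RNA quality. Malat1, a nuclear transcript, stood at 43145 to 49096 CPM in S1-S2 and at 9955 to 15706 in S3. Mitochondrial RNA made up 17.21% to 19.25% in S1-S2 and 10.89% to 15.05% in S3. Clusters within S1-S2 differed in level as well, as given below for Slc22a28. The part of these differences in the ratios was not tested.

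**Figure D2:**
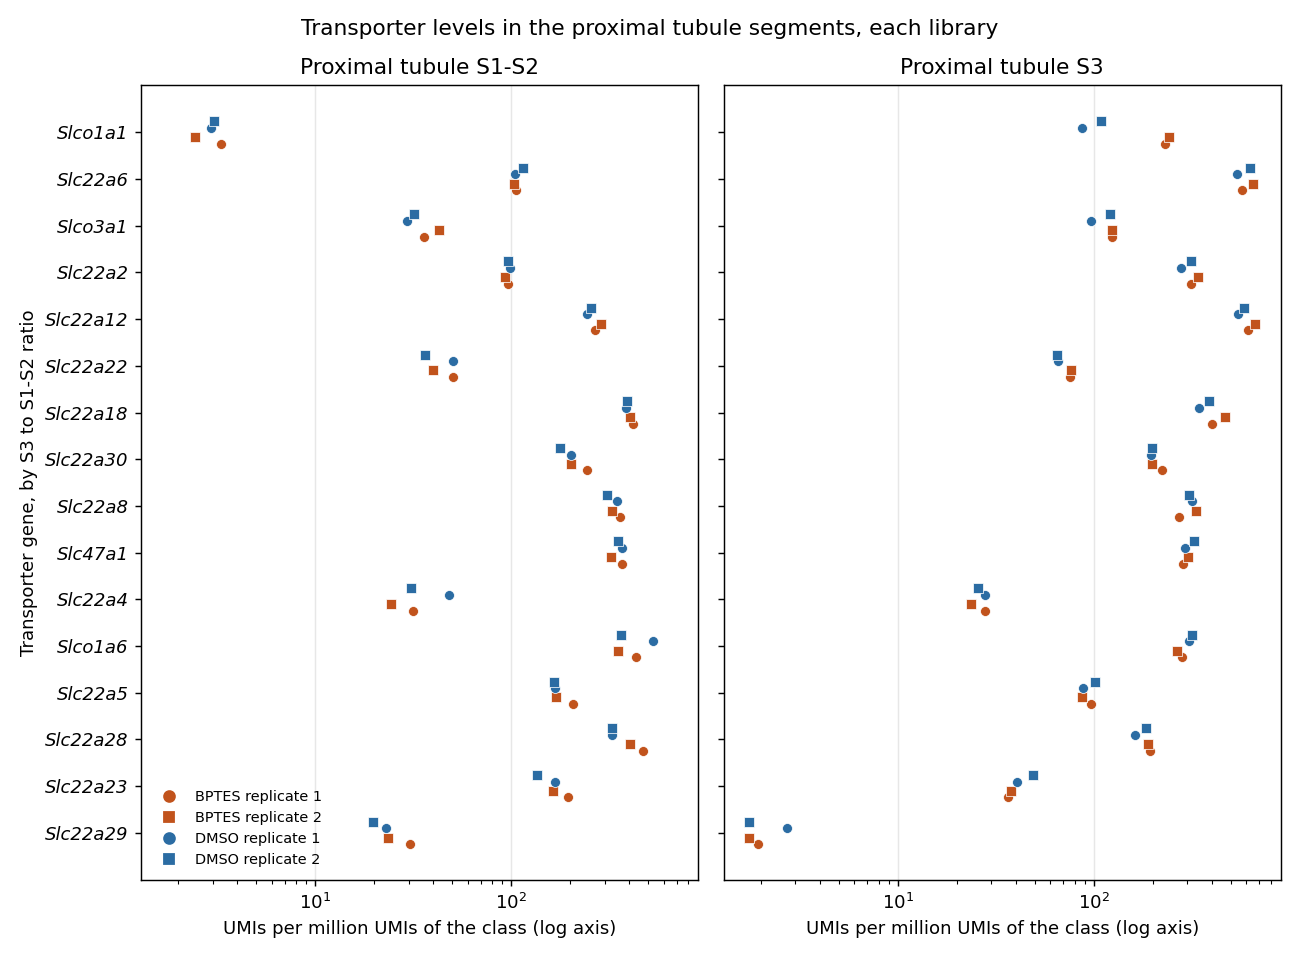
Level in CPM (log axis) of 16 members with a mean of at least 20 in S1-S2 or S3, in each library, for S1-S2 (left) and S3 (right), ordered by the S3 to S1-S2 ratio; points are single libraries. Slco1a1, Slc22a6, Slco3a1, Slc22a2 and Slc22a12 at the top shift to higher levels in S3, and Slc22a29, Slc22a23 and Slc22a28 at the bottom shift to lower ones.

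The comparison of BPTES with DMSO in S3 found 1 member past the threshold. Slco1a1 stood at 231 and 244 CPM in the BPTES libraries and at 87.1 and 109 in the DMSO libraries. Both BPTES libraries were above both DMSO libraries, and the groups did not overlap. The log2 fold change was 1.38 (SE 0.14, adjusted p = 0.00317, edgeR's quasi-likelihood test). Among all genes tested in S3, 91 of 13746 (0.662%) passed, 25 higher and 66 lower (16 and 23 with RLE scaling), against 1 of 31 members tested. At an unadjusted p under 0.05, 11 of the 31 members and 11.2% of all genes passed, so this share is above that of all genes, and no test of the excess was made. The members' median log2 fold change in S3 was 0.147, beside 0.010 over all genes tested, with 21 members above 0 and 10 below. The members' median was 0.065 with DESeq2 and 0.099 to 0.249 with a library left out. Slc22a19 (OAT5), a dicarboxylate-exchanging anion transporter, stood at 5.07 and 5.07 against 2.99 and 2.79 and missed the threshold (log2 0.91, SE 0.18, adjusted p = 0.0507).

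Slco1a1 was higher under BPTES in every cluster that makes up S3. In cluster 6, the cluster led by Kap, Cyp2a4 and Slc7a13, it stood at 339 and 464 CPM against 166 and 222. In cluster 20, with Atp11a, Slc6a18 and Slc7a13 among its leading genes, it stood at 338 and 316 against 125 and 157. In cluster 2, led by Acy3, Cndp2 and Inmt, it stood at 75.4 and 86.3 against 23.6 and 18.6. Fitted alone, as added after the data were seen, clusters 2 (log2 2.03, SE 0.15, adjusted p = 0.0211) and 20 (log2 1.24, SE 0.13, adjusted p = 0.0022) passed the test, where 0.0757% and 0.758% of all genes did. Cluster 6 did not (log2 1.00, SE 0.24, adjusted p = 0.404). The make-up of S3 also differed: cluster 6 held 36.7% and 30.7% of S3 cells under BPTES and 29.3% and 27.3% under DMSO, and cluster 2 held 51.4% and 61.4% against 58.0% and 57.1%. Cluster 20 held 11.9% and 7.85% against 12.7% and 15.6%, with no overlap. RNA of S3 cells was 10.9% and 15.1% mitochondrial against 11.5% and 13.4%. The injury markers in S3, 8 genes in all, summed to 16.5 and 16.4 CPM under BPTES and 35.6 and 46.3 under DMSO, with 1 of 8 at 0 in BPTES library 2. Malat1, a nuclear transcript, stood in S3 at 12367 and 9955 CPM against 13291 and 15706, with no overlap. The part of these differences in the result was not tested. Slco1a1 passed in S3 under each of 11 alternatives run, at 1.21 to 1.57.

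**Figure D3:**
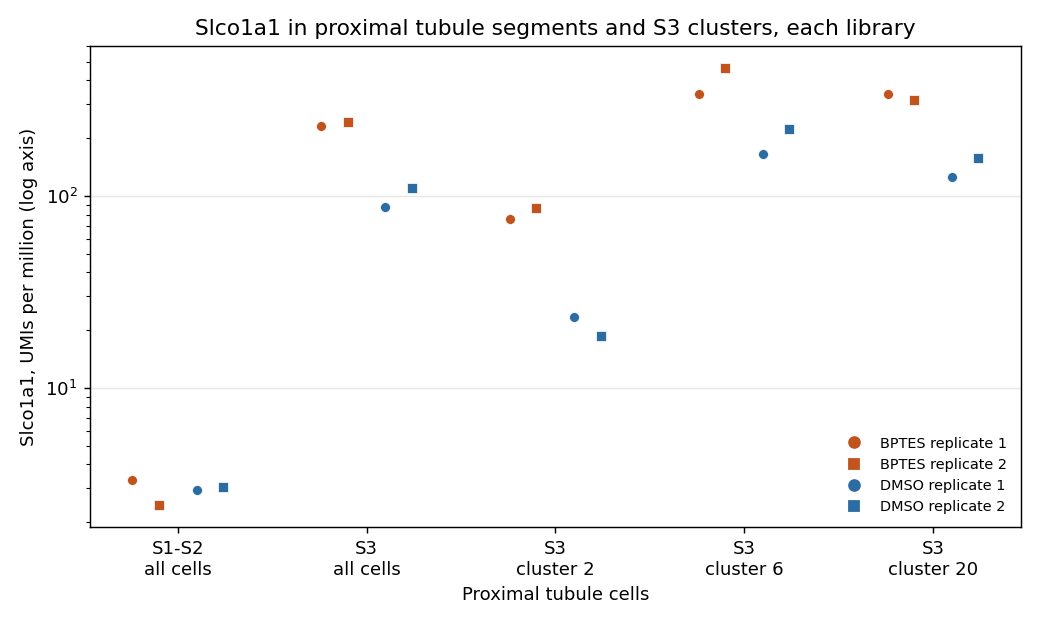
Slco1a1 level in CPM (log axis) in all S1-S2 cells, all S3 cells and the 3 clusters of S3; each point is 1 library. BPTES points lie above DMSO points in S3 and in each of its clusters, and the groups overlap in S1-S2.

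In S1-S2, Slco1a1 was low, at 3.32 and 2.45 CPM under BPTES and 2.96 and 3.06 under DMSO (log2 0.02, SE 0.19, adjusted p = 0.978). That was 0.0101 to 0.034 of its S3 level in the same library. Whether this low level is expression in S1-S2 cells or free RNA was not tested. The difference of the treatment effect between segments was tested as an interaction with the library as a block. It passed for 2 of 32 members, Slco1a1 (1.38, SE 0.19, adjusted p = 1.7e-09) and Slc22a19 (2.24, SE 0.57, adjusted p = 0.00929), and for 266 of 14995 genes (1.77%). Like those of the other edgeR fits, the p-values of this fit draw on a variance shared among genes. Their size therefore does not measure the spread of a single gene between the 4 libraries. The Slc22a19 value rests on 8, 4, 13 and 9 UMIs in S1-S2, so its direction there is poorly known. At a mitochondrial limit of 25% neither passed: Slco1a1 gave 1.51 (adjusted p = 0.194) and Slc22a19 gave 0.35 (adjusted p = 0.849). Cells were clustered and split into segments anew at that limit, so the make-up of the segments changed as well. Slc22a19 also lost its call without BPTES library 2 (1.73, adjusted p = 0.239), without DMSO library 1 (2.01, adjusted p = 0.214) and without DMSO library 2 (2.32, adjusted p = 0.0735). For Slco1a1 the 4 fits without a library gave 1.05 to 1.65, and all passed.

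In the whole proximal tubule, 3 members were higher under BPTES. Slc22a28 stood at 335 and 338 CPM under BPTES and 223 and 234 under DMSO (log2 0.65, SE 0.10, adjusted p = 0.0380). Slc22a29 stood at 17.4 and 16.7 against 11.5 and 9.93 (log2 0.76, SE 0.10, adjusted p = 0.0266). Slc22a23 stood at 124 and 127 against 96.0 and 86.8 (log2 0.55, SE 0.09, adjusted p = 0.0492). Among all genes 130 of 16017 (0.812%) passed, 46 higher and 84 lower, against 3 of 32 members tested. At an unadjusted p under 0.05 it was 12 members and 21.3% of all genes. All 3 are genes of the early tubule, and S1-S2 cells gave 53.5% and 68.1% of proximal tubule UMIs under BPTES against 41.8% and 42.0% under DMSO. Malat1 stood in whole proximal tubule at 31471 and 32670 CPM against 26066 and 28541, with no overlap, and mitochondrial RNA made up 14.9% and 17.5% against 13.1% and 14.9%. The part of the segment mix and of these values in the 3 calls was not tested. The members' median log2 fold change was 0.168, beside -0.005 over all genes. The members' median was 0.109 with DESeq2 and 0.041 to 0.224 with a library left out. Slco1a1 did not pass in this mixture (76.2 and 57.8 against 33.5 and 48.4, log2 0.79, adjusted p = 0.132).

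Within S1-S2 the same 3 genes did not pass, nor did any of the 29 members tested. Slc22a28 reached a log2 fold change of 0.50 (SE 0.10, adjusted p = 0.0713), Slc22a29 of 0.41 (SE 0.12, adjusted p = 0.139) and Slc22a23 of 0.33 (SE 0.11, adjusted p = 0.181). Of all genes, 110 of 14913 (0.738%) passed, and at an unadjusted p under 0.05 there were 11 members and 17.0% of all genes. DESeq2 called 2 members, Slc22a28 and Slco3a1. In S3 the values were 0.24 for Slc22a28, -0.17 for Slc22a29 and -0.16 for Slc22a23. Without BPTES library 2 none of the 3 passed in whole proximal tubule, at 0.59 for Slc22a28 (adjusted p = 0.0906), 0.74 for Slc22a29 (adjusted p = 0.0906) and 0.48 for Slc22a23 (adjusted p = 0.105). Without the injured cluster Slc22a29 passed (0.74, adjusted p = 0.0331), while Slc22a28 (0.63, adjusted p = 0.0516) and Slc22a23 (0.53, adjusted p = 0.0646) fell just short with nearly the same values as before. Slc22a28 also missed the threshold without DMSO library 1 (0.58, adjusted p = 0.0574) and at a mitochondrial limit of 25% (0.73, adjusted p = 0.0514). Slc22a23 also missed it without DMSO library 2 (0.50, adjusted p = 0.0727), with RLE scaling (0.55, adjusted p = 0.0551) and with predicted doublets kept (0.53, adjusted p = 0.0576).

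Fitted alone, as added after the data were seen, cluster 0 of the early tubule had 6 of 22 members past the threshold, all higher under BPTES, beside 182 of 11940 genes (1.52%). Of the 22, 21 had a log2 fold change above 0 and 14 an unadjusted p under 0.05, beside 14.8% of all genes. The 6 were Slc22a4 (log2 0.63, adjusted p = 0.0228), Slc22a30 (0.51, adjusted p = 0.0108), Slc22a28 (0.41, adjusted p = 0.0233), Slc22a5 (0.37, adjusted p = 0.0243), Slc22a12 (0.34, adjusted p = 0.0207) and Slc22a18 (0.31, adjusted p = 0.0372). Slc22a4 stood in this cluster at 13.4998 and 12.8 CPM against 9.26 and 8.92. In S1-S2 as a whole its log2 fold change had the other sign (-0.42, SE 0.22, adjusted p = 0.422), as in whole proximal tubule (-0.16, adjusted p = 0.457). Slc22a30 stood at 45.3 and 42.6 against 31.9 and 34.2, and Slc22a28 at 86.2 and 78.7 against 63.7 and 69.5. In each of these 3 both BPTES libraries were above both DMSO libraries. In cluster 1 only Slc22a28 passed, 1 of 27 members beside 110 of 14044 genes (0.783%), at 766 and 762 against 523 and 536 (log2 0.56, adjusted p = 0.0303). In cluster 17, 0 of 21 members passed, beside 195 of 10881 genes. There Slc22a28 stood at 419 and 387 against 224 and 273 (log2 0.59, adjusted p = 0.0512). Slc22a29 and Slc22a23 passed in none of the clusters fitted. Cluster 1, with a median of 31746 UMIs and 8.0% mitochondrial RNA per cell, held 32.6% and 25.5% of S1-S2 cells under BPTES and 37.3% and 33.1% under DMSO, while cluster 0 had 12388 UMIs and 30.9%. Malat1, a nuclear transcript, stood in S1-S2 at 49096 and 43145 CPM against 46300 and 47994, with overlapping groups. The 8 injury markers summed in S1-S2 to 5.18 and 3.86 CPM under BPTES and 10.97 and 15.4 under DMSO, with 7 of 8 lower in both BPTES libraries and none at 0. The 8 S3 markers summed there to 991 and 829 against 1047 and 1015, with 5 of 8 lower and 1 higher in both BPTES libraries and none at 0. The part of these differences in the result was not tested.

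**Figure D4:**
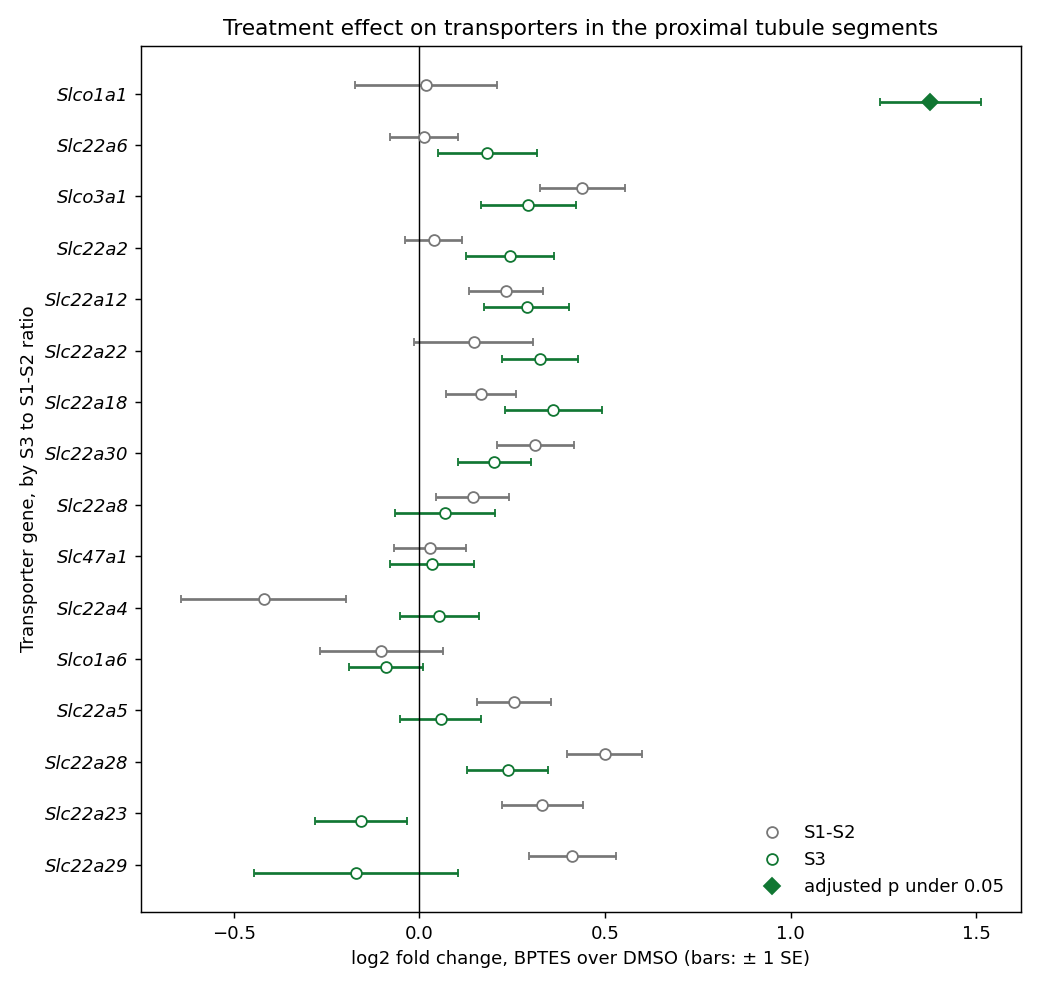
Log2 fold change of BPTES over DMSO with ± 1 SE in S1-S2 (grey) and S3 (green) for 16 members with a mean of at least 20 CPM in either segment; filled diamonds mark an adjusted p under 0.05. Slco1a1 in S3 (1.38) is the only filled symbol, and its S1-S2 value lies at 0.02. Each SE was worked back from the edgeR test statistic.

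Partner genes were taken from lists chosen with earlier results of these data known, and 0.812% of all genes passed in proximal tubule. Of 9 ATP-driven efflux pumps, which export conjugates into urine, 1 fell in proximal tubule: Abcb1b, a P-glycoprotein gene, at 5.99 and 5.45 CPM against 11.6 and 9.54 (log2 -0.80, adjusted p = 0.0276, edgeR). The abundant pumps Abcg2 (525 and 544 against 484 and 532) and Abcc2 (386 and 351 against 452 and 408) did not pass. Among 9 scaffold and regulatory partners, Sgk2, a kinase known to activate several transporters, rose in proximal tubule (117 and 119 against 82.7 and 79.8, log2 0.63, adjusted p = 0.0276), while Tmem27 (1711 and 1943 against 1390 and 1735) and Pdzk1ip1 (798 and 884 against 699.9 and 769) did not pass. In the list of 16 genes tied to conjugation, Gldc, the decarboxylase of the glycine cleavage system, rose (178 and 220 against 107 and 116, log2 0.92, adjusted p = 0.0420). The abundant enzymes of that list, Acsm2 (3282 and 3362 against 2785 and 3100) and Glyat, which joins glycine to acyl groups (829 and 662 against 939 and 845), did not pass. The same 3 genes passed in S1-S2 (Abcb1b -1.13, Sgk2 0.90 and Gldc 0.68), where 0.738% of all genes did, and no gene of any list passed in S3, where 0.662% of all genes did. In S3 their lists had a median log2 fold change of -0.290 for the pumps, 0.073 for the partners and 0.055 for the conjugating enzymes, beside 0.010 over all genes.

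Lists closest to the exchange of dicarboxylates gave no call. Of 11 genes that supply dicarboxylates and alpha-ketoglutarate, 0 passed in proximal tubule, S1-S2 or S3 (edgeR), with 0, 1 and 0 at an unadjusted p under 0.05 and medians of -0.070, 0.019 and 0.072. Idh1 stood in proximal tubule at 635 and 668 CPM against 746 and 711, and Glud1, which makes alpha-ketoglutarate from glutamate, at 395 and 379 against 429 and 416. Urate handling (8 genes tested), the transcription factors of tubule transporters (11 tested) and carnitine handling (7 tested) had no call in proximal tubule, with 2, 5 and 2 genes at an unadjusted p under 0.05, a level that 21.3% of all genes reached. Their median log2 fold changes were -0.157, -0.222 and -0.176, beside -0.005 over all genes. Of the urate list, the scaffold gene Pdzk1 stood at 730 and 676 against 666 and 652, beside Abcg2 above. The transcription factor Maf stood at 647 and 599 against 770 and 625, and Nr1h4, the bile acid receptor, at 312 and 293 against 286 and 320. Aldh9a1, an enzyme of carnitine synthesis, stood at 255 and 207 against 281 and 272, and Cpt1a, which loads fatty acids onto carnitine, at 116 and 112 against 126 and 130.5.

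The list of male-biased or androgen-responsive kidney genes was set beside Slco1a1 in S3. None of its 10 genes passed, 5 had an unadjusted p under 0.05 (11.2% of all genes), and 8 had a log2 fold change above 0, with a median of 0.350 beside 0.010 over all genes. In S1-S2 and in whole proximal tubule 0 of the 10 passed and 3 of the 10 were above 0, with medians of -0.149 and -0.065. Of the list, Slc7a13 and Cyp7b1 are also among the S3 markers. Kap, the kidney androgen-regulated protein, stood at 42787 and 44451 CPM against 30673 and 36983 in S3 (log2 0.47, adjusted p = 0.285). Cyp4b1 stood at 2172 and 2327 against 1743 and 1880. The summed S3 markers stood at 5562 and 4672 in S3 under BPTES and at 4551 and 4368 under DMSO, with 3 of the 8 higher and 1 lower in both BPTES libraries. The part of this difference in the Slco1a1 result was not tested.

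Outside the proximal tubule the family was spread over vessels, leukocytes and distal tubule. In the classes large enough to test, Slco3a1 was highest in T cells, at 309 and 320 CPM under BPTES and 296 and 324 under DMSO. Endothelium (222 and 270 against 245 and 245) and innate lymphoid cells (253 and 251 against 265 and 207) followed and overlapped. The other levels of Slco3a1 ran from 195 in distal convoluted tubule and 186 in principal cells to 15.2 in B cells, as means of 4 libraries. In neutrophils it stood at 114 and 93.5 against 144 and 219, which did not pass (log2 -0.85, adjusted p = 0.435).

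Slco2b1, a carrier of steroid sulfates, was highest in macrophages (223 and 254 CPM against 255 and 185). Slc22a15, a carrier of zwitterions, was highest in neutrophils (231 and 248 against 236 and 189), followed by endothelium (51.1 and 47.2 against 47.6 and 44.7). Slco1a4, known from the blood-brain barrier, was highest in endothelium, at 32.1 and 39.9 against 30.6 and 65.6. Slco2a1, the prostaglandin transporter, averaged 111 in endothelium and 129 in thin limb, a class with too few cells per library for a test. Slco4c1 reached 13.52 and 19.6 against 16.1 and 12.1 in neutrophils. Treatment groups overlapped for Slco2b1 in macrophages, Slc22a15 in neutrophils and Slco1a4 in endothelium.

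Distal segments kept a few members. Slc22a4 stood in thick ascending limb at 55.9 and 47.3 CPM against 75.3 and 49.3, above its level in S1-S2 in each of the 4 libraries. Slco4a1, a thyroid hormone carrier, stood there at 17.0 and 23.7 against 29.7 and 40.8. Slc22a23 stood in distal convoluted tubule at 91.2 and 94.3 against 106 and 103. Slc22a17, the receptor for lipocalin 2, stood at 56.5 and 37.9 against 37.2 and 39.8 in principal cells and at 32.2 and 44.3 against 39.4 and 41.8 in intercalated cells. In 9 other classes (macrophages, neutrophils, T cells, innate lymphoid cells, cycling cells and 4 distal tubule classes) edgeR called 0 of 143 pairs of member and class. An unadjusted p under 0.05 was reached by 36 of the pairs, while none was called by DESeq2. Over all genes in those classes, 0.387% of pairs passed and 12.1% had an unadjusted p under 0.05.

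Endothelial Slco2a1 fell under BPTES. It stood at 90.3 and 89.5 CPM under BPTES and at 125 and 138 under DMSO, with no overlap (log2 -0.53, SE 0.09, adjusted p = 0.0226, edgeR). In endothelium 72 of 12929 genes (0.557%) passed, against 1 of 23 members. The difference was past the threshold in cluster 5, the largest, led by Igfbp3, Igfbp5 and Esm1: there it stood at 27.005 and 34.353 against 59.4 and 61.2 (log2 -0.99, SE 0.13, adjusted p = 0.0120 in a fit added after the data were seen, in which 0.346% of genes passed). In cluster 27, with Plvap, Adgrl4 and Selp among its leading genes, it stood at 237 and 110 against 287 and 277, and in cluster 44, led by Plat and Ehd3, at 389 and 591 against 270 and 390, neither of which passed. Cluster 27 held 12.8% and 12.2% of endothelial cells under BPTES and 14.9% and 21.6% under DMSO. Thin limb markers, a cell type that also holds Slco2a1, summed to 57.5 and 45.9 against 51.1 and 76.5 in this class, with 2 and 5 of 7 at 0 under BPTES and 3 and 0 under DMSO. Proximal tubule markers summed in endothelium to 460 and 361 against 305 and 295, with no overlap, 6 of 10 higher and 0 lower in both BPTES libraries and none at 0. The 8 fibroblast and mural markers summed to 4.29 and 2.37 against 4.37 and 8.98. The part of these markers in the result was not tested. Clusters 19 (777 cells) and 24 (571 cells) scored highest for endothelium but stayed unnamed, and they are not part of the call. With predicted doublets kept and at resolution 2, the class was formed anew. It then held 1126 and 923 cells in BPTES library 1, against 787 in the main fit. In all unnamed cells together Slco2a1 stood at 82.1 and 38.5 CPM under BPTES and 52.4 and 65.2 under DMSO, with overlapping groups. The call was lost without BPTES library 1 (-0.53, adjusted p = 0.0528), with predicted doublets kept (-0.50, adjusted p = 0.195) and at resolution 2 (-0.50, adjusted p = 0.0552).

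Dendritic cells had 2 calls. Slco3a1 stood at 97.0 and 97.2 CPM under BPTES and 72.9 and 72.7 under DMSO (log2 0.41, SE 0.06, adjusted p = 0.0230). Slco5a1, a member without a settled substrate, stood at 2.76 and 3.88 against 14.1 and 9.22 (log2 -1.82, SE 0.29, adjusted p = 0.0279). In this class 569 of 13106 genes (4.34%) passed, against 2 of 21 members. The class joins cluster 11, led by Cd209a and Ccl17, and cluster 30, with Xcr1 and Clec9a among its leading genes, and cluster 30 held 34.0% and 36.3% of it under BPTES against 15.4% and 27.9% under DMSO. The level of Slco3a1 was higher in cluster 30 than in cluster 11: it stood in cluster 30 at 154 and 155 against 171 and 135 and in cluster 11 at 60.6 and 55.7 against 52.7 and 45.8, and neither difference between treatments passed. The part of this mix in the result was not tested. Ccr7, the receptor of migrating dendritic cells and one of the dendritic markers, stood in the class at 20.5 and 34.1 against 98.3 and 109.5, with no overlap. Plasmacytoid dendritic markers summed to 444 and 399.8 against 385 and 399, with 3 of 5 higher and 0 lower in both BPTES libraries and none at 0. The part of these in the Slco3a1 and Slco5a1 results was not tested. Slco5a1 stood in cluster 11 at 4.39 and 1.95 against 17.0 and 13.2 (log2 -2.23, adjusted p = 0.0362, with 1.34% of genes passing in that cluster). With predicted doublets kept, Slco5a1 no longer passed (-0.46, adjusted p = 0.522). Without BPTES library 1 or 2, neither gene passed (adjusted p = 0.103 and 0.133 for Slco3a1, 0.149 and 0.133 for Slco5a1).

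Monocyte and B cell calls rested on less. Slc22a15 stood in monocytes at 34.6 and 37.8 CPM under BPTES and 23.7 and 24.8 under DMSO (log2 0.61, SE 0.13, adjusted p = 0.0492), where 485 of 12287 genes (3.95%) passed against 1 of 20 members. DESeq2 did not call it (adjusted p = 0.0988), and edgeR did not at resolution 2 (0.39, adjusted p = 0.130), with predicted doublets kept (0.48, adjusted p = 0.0959) or with the replicate block (0.60, adjusted p = 0.0548), nor in the fits without either BPTES library (0.128 and 0.307) or without DMSO library 1 (0.126). The cluster richer in Slc22a15, number 21, held 51.7% and 47.5% of monocytes against 34.8% and 42.9%, and Slc22a15 passed in neither monocyte cluster. The neutrophil markers, a type with more Slc22a15, summed to 176 and 136 against 249 and 336, with none of 6 at 0 and 4 of 6 lower in both BPTES libraries. In B cells Slco2b1 stood at 9.94 and 11.2 against 36.9 and 58.4 (log2 -2.16, SE 0.29, adjusted p = 0.0401), where 27 of 10934 genes (0.247%) passed against 1 of 15 members. Of its 39, 33, 122 and 289 UMIs, 31, 29, 121 and 288 came from cluster 48, which held 6, 4, 20 and 56 of the B cells. The macrophage markers, 8 genes, summed in B cells to 1950 and 874 CPM against 3073 and 9741, with none at 0. In the other B cell cluster, number 10, 8, 4, 1 and 1 UMIs of Slco2b1 were counted. With predicted doublets kept the B cell value was -0.40 (adjusted p = 0.286), at resolution 2 it was -2.18 (adjusted p = 0.0521), and without BPTES library 1 or 2 the adjusted p was 0.270 and 0.399.

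**Figure D5:**
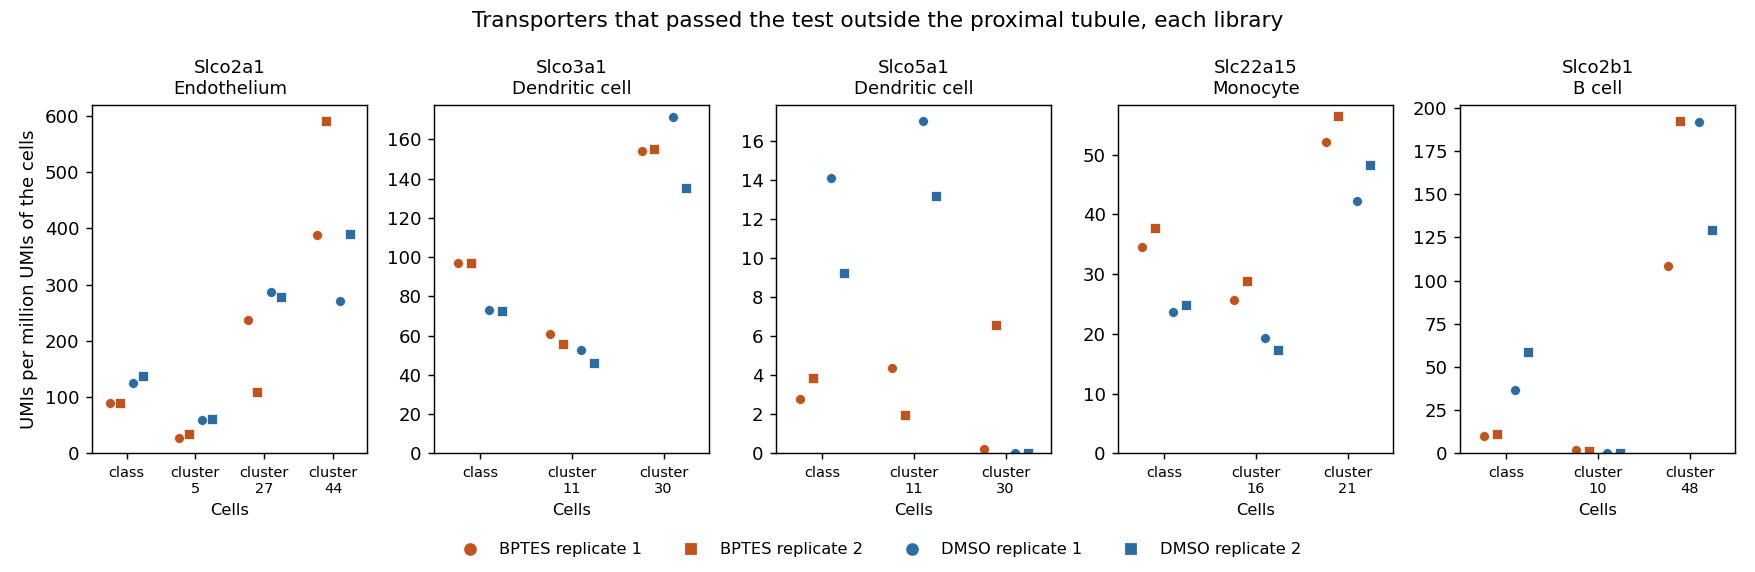
Level in CPM of the 5 pairs of member and class that passed the test outside the proximal tubule, in the whole class and in its clusters (endothelial cluster 37 is not drawn); each point is 1 library, and the axes start at 0. Slco2a1 is lower under BPTES in cluster 5, Slco5a1 in cluster 11, and Slco2b1 in the B cell class is carried by cluster 48.

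The other 16 members stayed below 20 CPM on average in every class tested and had no call. Slc22a21 reached 16.8 in dendritic cells, Slc22a7 15.7 in S3, Slco4c1 15.4 in neutrophils, Slc22a13 5.51 in S3, Slc22a14 5.42 in endothelium and Slc22a3 4.82 in thick ascending limb. Slc22a20 reached 2.17 and Slc22a26 1.26. Slc47a2 stood at 1.01, Slc22a27 at 0.718, Slco6d1 at 0.266, Slco6c1 at 0.166, Slco1b2 at 0.121, Slco1a5 at 0.108 and Slco1c1 at 0.0863 in the class where each was highest. Slc22a16 had 1 UMI in all named cells.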

How the data were processed

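Raw UMI counts per gene and barcode were deposited by the authors as filtered matrices of 4 libraries; they were made with Cell Ranger 8.0.1, per the file headers, on mm10, per the submitters' processing notes. Barcodes with at least 500 UMIs, 300 genes and at most 50% mitochondrial UMIs were kept. Barcodes with the highest Scrublet scores were removed as predicted doublets, 0.4% for each 1000 barcodes of a library (3867 cells). Scanpy 1.11.5 clustered the rest from 3000 variable genes without the members (40 components, 15 neighbours, Leiden resolution 1). Clusters took names from 24 marker lists, so differences from the study may come from rebuilt names; 7 of 51 clusters stayed unnamed (12.2% of cells). A proximal tubule cluster was given a segment where 1 segment score was above 0 and led by 0.5, a threshold set after seeing the data.

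Counts were summed per library and class. Where a class held at least 50 cells in every library, edgeR 4.0.16 fitted a quasi-likelihood model with TMM factors and its own low-count filter, with Benjamini-Hochberg adjustment over all genes at 0.05. The segment interaction used the library as a block. The method, tested on simulated data, recovered 41.8% of changes of 0.5 and 100.0% of changes of 1.0 (log2) in proximal tubule, with 10 false calls among 16009 genes. For the segment interaction it recovered 13.4% and 79.1%, with 4 false calls among 14918 genes. The simulation gave every gene the same relative spread between libraries and changed only genes above a minimum count. It drew the segments without a shared library effect. These rates therefore do not describe low or more variable genes. In the measured proximal tubule data, members with changes beyond 1.0 in size did not pass edgeR's test. They were Slc22a13 (log2 -1.45, adjusted p = 0.101), Slc22a15 (-1.30, adjusted p = 0.0960) and Slco4c1 (-1.60, adjusted p = 0.276). How recovery depends on the level of a gene was not tested, nor was recovery in the other cell classes. Library totals were 249881074 to 297947661 UMIs, which sets the counting precision.

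Alternatives were DESeq2 1.42.0, RLE scaling, no filter, a replicate block, each library left out, a 25% mitochondrial limit, doublets kept, resolution 2 and injured clusters left out. At the 25% limit, with doublets kept and at resolution 2, cells were clustered, named and split into segments anew. Class membership therefore changed there too, and its part in gained or lost calls was not tested. Fits of single clusters were chosen after seeing the data. Named with a value in every library were members with a mean of at least 20 CPM (UMIs per 1000000 UMIs of the class) in a class tested or a call in any test (25 of 41). Of these 1 is not reported here, nor is 1 list gene outside the naming rule, though counts include both. From the gene lists, called genes and up to 2 of the highest level in proximal tubule were named. Members and lists were chosen with earlier results of these data known. Upstream sequences are RefSeq's on GRCm38.p6.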

Additional observations from a re-analysis of the deposited data

Results flagged for a closer look

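For 2 members the effect of BPTES differed between S3 and S1-S2 by a test of the difference itself. The value was 1.38 for Slco1a1 (SE 0.19, adjusted p = 1.7e-09, edgeR with the library as a block), which was higher in S3 in both BPTES libraries and overlapped between groups in S1-S2. Its S1-S2 level was only 0.0101 to 0.034 of that in S3, and whether it is expression or free RNA was not tested. At a mitochondrial limit of 25%, with cells clustered and split into segments anew, the value for Slco1a1 was 1.51 and no longer passed (adjusted p = 0.194). The value was 2.24 for Slc22a19 (SE 0.57, adjusted p = 0.00929), which rests on 8, 4, 13 and 9 UMIs in S1-S2 and was lost at the same limit (0.35). These p-values draw on a variance shared among genes, so their size does not measure the spread of a single gene between libraries.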

How the results depend on the processing

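The count of members past the threshold in proximal tubule was 3, all higher under BPTES. It was 7 with DESeq2 (6 higher and 1 lower) and 11 without a low-count filter (8 higher and 3 lower). It was 2 each with RLE scaling, at a mitochondrial limit of 25% and with doublets kept, and 1 without the injured cluster. The count rose or fell when a library was left out, depending on the library, and the calls were then not all higher. In S1-S2 it was 0, and 2 with DESeq2, 1 at a mitochondrial limit of 25%, 3 without a filter, 1 with doublets kept and 0 to 2 with a library left out. In S3 it was 1, and 2 at resolution 2, 5 without a filter and 1 to 5 with a library left out. For the segment difference it was 2, and 4 at resolution 2 (2 above 0 and 2 below). With a library left out Slco1a1 kept its call, while the other member called was not always Slc22a19. At a mitochondrial limit of 25% the count was also 2, both below 0, but neither was Slco1a1 or Slc22a19. In the 13 other classes it was 5, and 2 at resolution 2, 28 without a filter and 1 to 22 with a library left out. The labels do not say that replicate numbers pair the libraries, and deviations of same-numbered libraries correlated at 0.147 over 2 pairs. With the replicate block the counts were 9 in proximal tubule, 6 in S1-S2, 7 in S3 and 12 in the other classes. In those other classes, calls over all genes ran from 0 (cycling cells) to 847 (dendritic cells) with the block. They ran from 0 to 569 in the main fit. Calls over all genes in proximal tubule were 130, and 947 with DESeq2 (573 higher and 374 lower), 2166 without a filter (1212 and 954), 2526 with the block (1581 and 945), 85 with doublets kept, 77 without the injured cluster and 16 to 1625 with a library left out. In S1-S2 they were 110, and 426, 736 and 657 in the first 3 of these settings, 227 at a mitochondrial limit of 25%, 250 with doublets kept and 171 to 875 with a library left out. In S3 they were 91, and 195, 616 and 481 in the same 3 settings, 154 at resolution 2, 39 with RLE scaling (16 higher and 23 lower, against 25 and 66) and 18 to 606 with a library left out. For the segment difference they were 266, and 411 at resolution 2, 648 at 25% and 103 to 198 with a library left out. In single clusters, fitted after the data were seen, Slc22a23 turned to -0.33 in cluster 6 and -0.053 in cluster 20, Slc22a29 to -0.33 in cluster 3, -0.77 in cluster 20 and -0.31 in cluster 26, and Slco2a1 to 0.55 in endothelial cluster 44, none past the threshold. Slc22a4, which passed at 0.63 in cluster 0, was -0.42 in S1-S2, where it did not pass. The cause was not tested. Of 663 values of single members under alternatives, 567 kept direction and side of the threshold, 56 fell below it, 34 rose past it and 6 turned. Counts of 16 members above 20 CPM in proximal tubule did not change under 3 settings. In those fits the group with a single library was assumed to vary like the others. Intervals from UMI counts cover counting error only, and 2 libraries a group limit every test.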
